A study of Mus musculus with 30 samples.

Results

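The clustered protocadherins are cell-surface adhesion proteins of the cadherin superfamily, encoded by 3 neighbouring gene clusters called alpha, beta and gamma. They were taken here as every row of the count table whose mouse symbol begins with Pcdha, Pcdhb or Pcdhg followed by a number, or by the letter a, b or c and a number. That gave 58 of the 55471 genes: 14 alpha, 22 beta and 22 gamma members. The symbol Pcdha11 belonged to 2 Ensembl identifiers, which were kept apart. All 58 lie on the plus strand of chromosome 18 in GRCm38. The alpha models run from 36930184 to 37187661, the beta models from 37264938 to 37524479 and the gamma models from 37661793 to 37841873.

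Each alpha and gamma transcript joins 1 variable first exon, which has its own promoter and codes for the extracellular and transmembrane parts, to constant exons shared by its whole cluster. Beta members have their own coding exon and no constant part. In neurons the promoters are chosen largely at random, with the help of CTCF, cohesin and DNA methylation, so that each cell shows its own combination of isoforms, and the proteins recognise matching combinations on other cells. The isoforms called C-type (Pcdhac1, Pcdhac2, Pcdhgc3, Pcdhgc4 and Pcdhgc5) are set apart from this random choice. Outside the nervous system the family is known mostly from cell lines and tumours, where single members are often silenced by methylation.

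RNA was sequenced from 30 pieces of MC38 tumour, MC38 being a mouse colon carcinoma line grown under the skin of female C57BL/6 mice aged 6 to 8 weeks at inoculation. The groups were wild-type MC38 cells (WT), MC38 cells with loss-of-function mutations in B2m (B2mKO) and MC38 cells with loss-of-function mutations in Jak1 (Jak1KO), each with an IgG1 control antibody or with an antibody to the checkpoint receptor PD-1 (aPD1), and each with 5 libraries. Mice of all 6 groups, controls included, were injected into a vein with 100 µg of antibody on days 7, 10 and 13, and tumours were taken on day 14. The mice themselves carried no mutation in the labels, so each piece holds mutant or wild-type cancer cells together with host stroma and immune cells of normal genotype. Whether B2mKO and Jak1KO cells were each 1 clone or a mixed population is not given in the sources used here, and no label says that the 5 libraries of a group are 5 mice. The p-values therefore rest on the spread among these libraries, part of which may be technical. Because the pieces are bulk tissue, fewer cells of a type and less RNA per cell cannot be told apart in any value below.

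Depth and labels were examined first. Libraries held 17629795 to 25944701 counts, and the clustered protocadherins took 0.0138 to 0.0264% of them. B2m, the light chain of MHC class I, averaged 617 and 749 CPM (counts scaled to library size, with TMM factors) in B2mKO tumours under IgG1 and aPD1 against 3090 and 4572 in WT tumours. Jak1, a kinase of interferon signalling, averaged 71.5 and 72.4 CPM in Jak1KO tumours against 232 and 239 in WT tumours. WT IgG1 replicate 3 and B2mKO aPD1 replicate 2 stood apart, with mean correlations to the other libraries of 0.946 and 0.943, where the other libraries had 0.960 to 0.974. The header of WT aPD1 replicate 2 names an alignment of another name, and its counts were used as deposited. Markers of epithelium, the tissue of origin of a colon carcinoma, were near 0: 8 genes summed to 3.17 to 32.1 CPM, and 1 of them had no count in any library.

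Since reads that fit several genes were not counted, the alpha and gamma counts come only from exon bases that no other gene model shares, which leaves mainly the variable exon. The median length of these bases was 2475 for alpha, 3714 for beta and 2601 for gamma members. Pcdhga10 had 0 such bases and therefore 0 counts in every library, which says nothing of its expression. Pcdhb21 and Pcdhb22 share exon bases, and Pcdhgc3 also shares bases with the gene model BC037039, so reads from these stretches were lost. Single members are ranked against each other as CPM per kilobase of a member's own bases. Shares of counts, numbers of members over a CPM line and the choice of named members are not scaled by length.

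Over all 30 libraries, gamma members held 67.6% of the family's counts (91248), beta members 32.2% (43483) and alpha members 0.157% (212). Of the 58 members, 20 averaged over 1 CPM and 2 over 10 CPM, and 5 had no count (Pcdha1, the second Pcdha11 identifier, Pcdhac1, Pcdhac2 and Pcdhga10). Pcdhgc3 stood far above the rest at 66.1 CPM per kb. The next gamma member, Pcdhga6, had 1.48 CPM per kb, a level 44.7-fold lower, and the highest beta member, Pcdhb22, had 3.74. In the plot of every member's level, the 6 groups keep the same broad order along the chromosome.

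**Figure D1:**
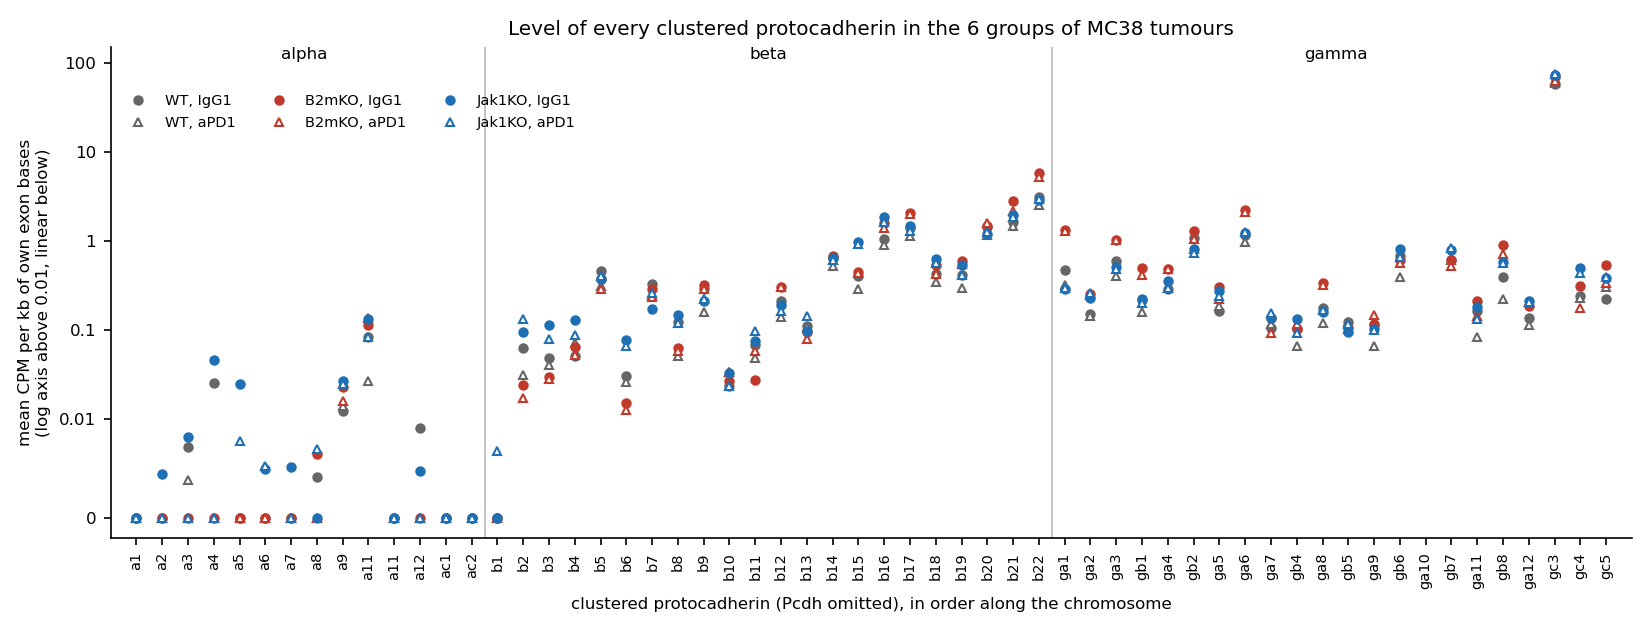
Mean level of each of the 58 members in the 6 groups (CPM per kb of own exon bases, log axis above 0.01 and linear below it; members in chromosome order; Pcdhga10 has no own bases and no point). Pcdhgc3 at 66.1 CPM per kb lies far above the other members, and Pcdhb14 to Pcdhb22 average 0.467 to 3.74 over the 30 libraries, above the averages of the other beta members.

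Alpha members were close to silent in all 6 groups. The first Pcdha11 identifier (ENSMUSG00000007440) held most alpha counts, with 22 and 8 counts over the 5 libraries of the WT IgG1 and WT aPD1 groups, 31 and 34 in the B2mKO groups and 36 and 22 in the Jak1KO groups. Pcdha9 followed with 3 to 7 counts per group. Pcdha5 had 6 and 2 counts in the Jak1KO groups and 0 in the other groups, where 0 counts in the WT IgG1 group allows up to 0.0294 CPM (3 counts over the group, counting error only). The alpha C-type isoforms Pcdhac1 and Pcdhac2, which neurons use widely, had 0 counts in all 30 libraries. No alpha member passed the filter of the main test. DESeq2, run without that filter, called the first Pcdha11 identifier higher in B2mKO than in WT tumours under aPD1. That difference was 2.21 ± 0.74 (DESeq2 adjusted p = 0.021) and rests on the 34 and 8 counts given above.

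In the beta cluster, the members nearest its downstream end were high and the others low. Pcdhb14 to Pcdhb22, 9 members grouped after their values were seen, held 92.6% of beta counts at 0.467 to 3.74 CPM per kb each. The 13 members Pcdhb1 to Pcdhb13 had 0.0011 to 0.367 CPM per kb. Pcdhb22 was the highest beta member per kb in 30 of 30 libraries, and Pcdhb21 was second in 25 of 30. The third place was held by Pcdhb17 in 9 of 10 B2mKO libraries and by Pcdhb16 in 8 of 10 Jak1KO libraries. In WT tumours Pcdhb17 held it in 4 of 5 IgG1 and 2 of 5 aPD1 libraries, and Pcdhb20 in the others.

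In the gamma cluster, Pcdhgc3 was first in 30 of 30 libraries. The other C-type isoforms, Pcdhgc4 and Pcdhgc5, averaged 0.314 and 0.360 CPM per kb. The 18 A- and B-type gamma members with counts had 0.102 to 1.48 CPM per kb, with a median of 0.257. Pcdhga6 led them in 27 of 30 libraries and Pcdhgb2 in the other 3, all of them WT. Pcdhga1 was second among them in 6 libraries, all B2mKO, whereas Pcdhgb7 was second in 6 libraries, of which 5 were Jak1KO.

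For the comparisons, 32 members passed the filter on low counts that left 15505 genes (0 alpha, 13 beta and 19 gamma), and 26 did not. The filter asks for about 0.472 CPM in at least 5 libraries; 15 of the 32 were above that level in every library. A difference was called when the Benjamini-Hochberg adjusted p of edgeR's quasi-likelihood test over all 15505 genes was under 0.05. Fold changes are log2 values ± SE. The B2mKO and Jak1KO comparisons use the same WT libraries and are not independent of each other. In all, 18 tested members were called in at least 1 genotype comparison and 14 in none.

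In B2mKO tumours, 10 tested members were higher than in WT tumours under IgG1 and 0 were lower, where 9.07% of all tested genes were called higher and 20.6% in either direction. Under aPD1, 11 were higher and 0 lower, where 9.55% of all tested genes were called higher and 19.7% in either direction. As a share of the 32 tested members these counts are 31.2% and 34.4%. Both counts include Pcdhgb1 and Pcdhga8, which were above the filter level throughout only 1 group and entered the test through the group where they are high. The counts and shares therefore rest in part on the filter. The median log2 fold change of the tested members was 0.39 under IgG1 and 0.61 under aPD1, against -0.00 for all genes under each antibody. Without WT IgG1 replicate 3 and B2mKO aPD1 replicate 2, an alternative chosen after seeing the data, the counts were 11 and 16, where 26.1% and 29.2% of genes were called in either direction.

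Pcdhb22 (chr18:37517871-37524479), the highest beta member, showed the B2mKO difference in every library. Its level was 16.7, 16.9, 22.3, 22.8 and 16.3 CPM in the WT IgG1 libraries and 41.6, 43.8, 34.0, 34.9 and 25.2 in the B2mKO IgG1 libraries. With aPD1 it was 12.0, 15.0, 14.7, 21.2 and 15.4 CPM in WT and 37.1, 25.9, 28.1, 35.5 and 31.9 in B2mKO libraries. Each B2mKO library was above each WT library of the same antibody, and the groups did not overlap. Pcdhb22 rose by 0.92 ± 0.14 under IgG1 (edgeR adjusted p = 4.1e-05) and by 1.02 ± 0.14 under aPD1 (adjusted p = 8.7e-06).

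Some of the other downstream beta members rose with it, while Pcdhb15 and Pcdhb18 were not called in B2mKO against WT tumours under either antibody. Pcdhb17 went from 6.40 ± 1.16 to 9.44 ± 1.74 CPM (SD, n = 5 each) under IgG1 and from 5.24 ± 0.939 to 9.27 ± 1.80 under aPD1. Its log2 fold changes were 0.56 ± 0.15 (edgeR adjusted p = 0.0074) and 0.82 ± 0.15 (adjusted p = 0.00021), and the groups overlapped under IgG1 but not under aPD1. Pcdhb16 rose by 0.62 ± 0.15 (adjusted p = 0.0036) and 0.64 ± 0.15 (adjusted p = 0.0029), and Pcdhb21 by 0.75 ± 0.17 (adjusted p = 0.0023) and 0.55 ± 0.17 (adjusted p = 0.022). Fitted on the compared groups alone, the IgG1 calls of Pcdhb16 and Pcdhb17 missed the threshold (adjusted p = 0.072 and 0.064), as did the aPD1 call of Pcdhb21 (adjusted p = 0.079), which was also lost on leaving out any of 5 single libraries. Pcdhb19 was called under aPD1 (0.90 ± 0.20, adjusted p = 0.0023). Pcdhb14 and Pcdhb20, expressed at 5.35 and 4.80 CPM on average and lying among these genes, were not called in either comparison: Pcdhb14 had 0.07 ± 0.14 and 0.23 ± 0.15, and Pcdhb20 0.03 ± 0.16 and 0.43 ± 0.16 (adjusted p = 0.051).

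**Figure D2:**
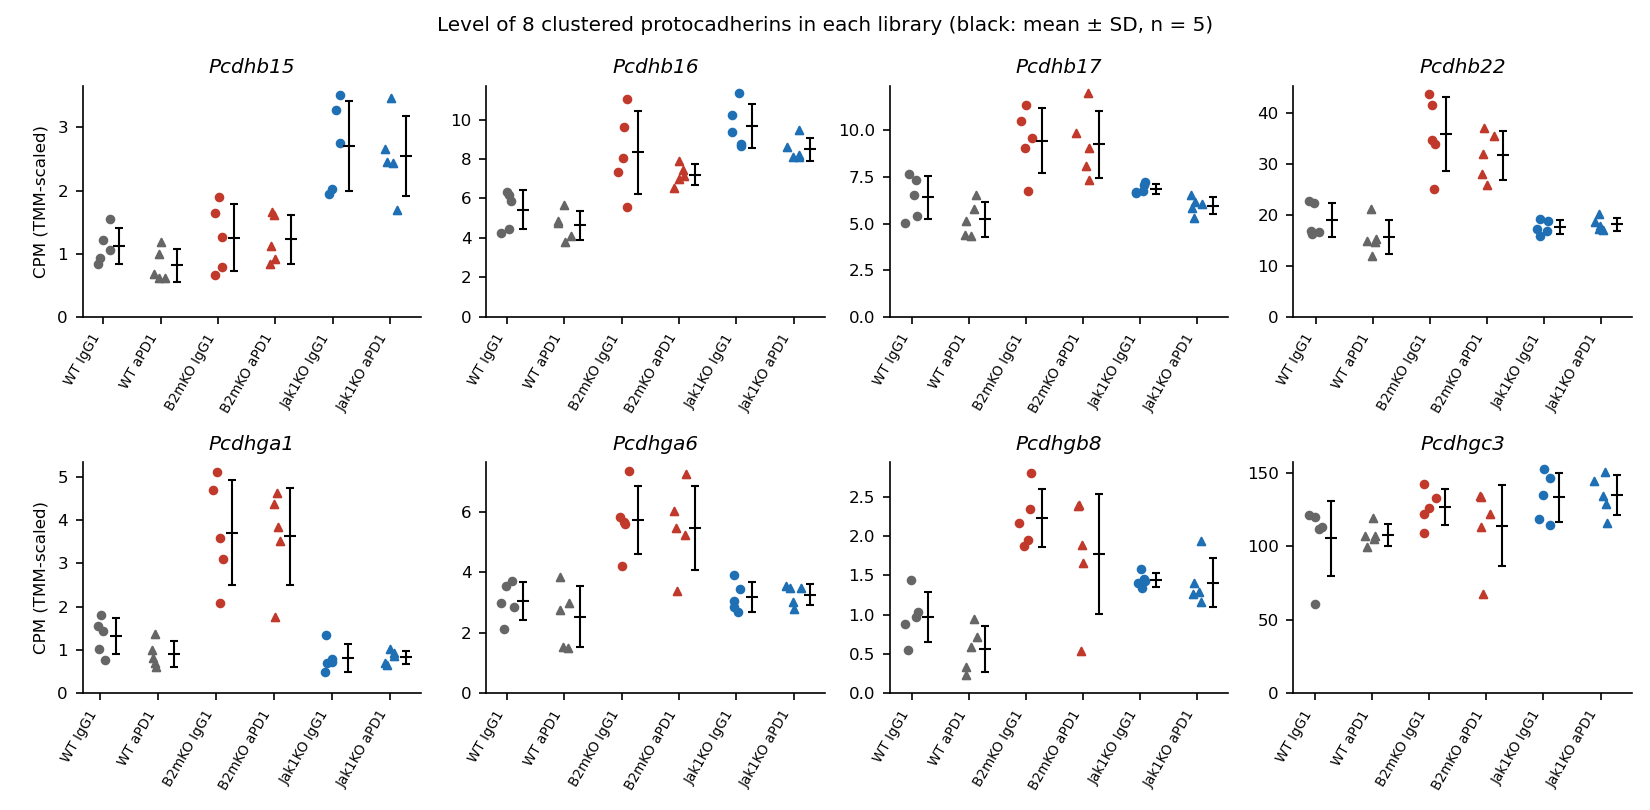
Level of 8 members in each of the 30 libraries (TMM-scaled CPM; circles IgG1, triangles aPD1; grey WT, red B2mKO, blue Jak1KO; black bars mean ± SD, n = 5). Pcdhb22 and Pcdhga1 are high in B2mKO libraries, Pcdhb15 in Jak1KO libraries, and Pcdhb16 in both mutant genotypes.

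Among gamma members, the first gene of the cluster, Pcdhga1 (chr18:37661793-37841873), changed most. Its level was 1.81, 0.775, 1.44, 1.55 and 1.01 CPM in WT IgG1 libraries and 4.70, 5.10, 3.10, 3.58 and 2.08 in B2mKO IgG1 libraries. Under aPD1 it was 0.606, 1.00, 0.815, 1.37 and 0.709 CPM in WT and 3.84, 1.76, 3.51, 4.62 and 4.36 in B2mKO libraries. All B2mKO libraries were above all WT libraries of the same antibody, the lowest B2mKO value under aPD1 being that of replicate 2, which stands apart. The log2 fold changes were 1.48 ± 0.29 (edgeR adjusted p = 0.00054) and 2.00 ± 0.29 (adjusted p = 1.7e-05).

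Pcdhga6, the highest A-type gamma member, went from 3.04 ± 0.632 to 5.73 ± 1.11 CPM under IgG1 and from 2.53 ± 1.01 to 5.47 ± 1.40 under aPD1 (SD, n = 5 each), a rise of 0.91 ± 0.22 (edgeR adjusted p = 0.0041) and 1.11 ± 0.22 (adjusted p = 0.00069). Its groups overlapped under aPD1, where 1 WT library had 3.86 and B2mKO replicate 2 had 3.38 CPM. Pcdhgb8 rose by 1.19 ± 0.31 (adjusted p = 0.0068) and 1.65 ± 0.32 (adjusted p = 0.00052), and Pcdhga8 by 0.94 ± 0.32 (adjusted p = 0.037) and 1.39 ± 0.33 (adjusted p = 0.0038). Pcdhgb1 rose by 1.18 ± 0.43 (adjusted p = 0.049) and 1.36 ± 0.44 (adjusted p = 0.030). Pcdhga3 was called under aPD1 (1.32 ± 0.31, adjusted p = 0.0032) and the C-type Pcdhgc5 under IgG1 (1.25 ± 0.44, adjusted p = 0.041). The IgG1 calls of Pcdhgb1, Pcdhga8 and Pcdhgc5 were each lost on leaving out any of 7 single libraries, with adjusted p up to 0.12, 0.10 and 0.097, and that of Pcdhgb1 under aPD1 on leaving out any of 6 (up to 0.088). With no filter on low counts, both Pcdhgb1 calls and the IgG1 calls of Pcdhga8 and Pcdhgc5 were lost. Pcdhgb1 and Pcdhga8 were above the filter level throughout only 1 group and were highest in B2mKO IgG1 tumours, so they entered the test through the group where they are high, and their calls are given as values without further weight.

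Pcdhgc3, in contrast, missed the threshold. It had 121, 113, 60.8, 112 and 120 CPM in WT IgG1 libraries and 143, 133, 122, 126 and 109 in B2mKO IgG1 libraries. With aPD1 it had 105, 107, 99.7, 107 and 120 CPM in WT and 122, 67.9, 113, 134 and 134 in B2mKO libraries. The groups overlapped under both antibodies, and the 2 lowest values belong to the 2 libraries that stand apart. Its log2 fold changes were 0.26 ± 0.16 (edgeR adjusted p = 0.24) and 0.08 ± 0.16 (adjusted p = 0.77). Without those 2 libraries the aPD1 difference was 0.23 and passed (adjusted p = 0.044).

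In Jak1KO tumours, 2 tested members were higher and 1 lower than in WT tumours under IgG1, where 6.93% of all tested genes were called higher, 11% lower and 17.9% in either direction. With aPD1, 4 were higher and 0 lower, where 8.06% of all tested genes were called higher and 20% in either direction. The members' shares, 9.38% and 12.5%, were below those of all genes. Their median log2 fold changes were 0.24 and 0.38, against 0.00 and 0.02 for all genes. Without the 2 libraries that stand apart the counts were 3 and 8, where 22.2% and 33% of genes were called. Neither of those libraries is in the groups compared under aPD1. The aPD1 count also rose to 7 without WT aPD1 replicate 4.

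Pcdhb15 and Pcdhb16, neighbours in the beta cluster, were called in Jak1KO tumours under both antibodies. Pcdhb15 (chr18:37473540-37476340) had 1.22, 1.05, 0.834, 1.55 and 0.923 CPM in WT IgG1 libraries and 3.28, 1.95, 2.02, 3.51 and 2.76 in Jak1KO IgG1 libraries. With aPD1 it had 0.606, 0.619, 0.996, 1.18 and 0.669 CPM in WT and 2.44, 3.46, 2.45, 2.66 and 1.69 in Jak1KO libraries. No Jak1KO library fell into the range of the WT libraries of the same antibody. The rise was 1.27 ± 0.28 (edgeR adjusted p = 0.0018) and 1.63 ± 0.29 (adjusted p = 0.00012).

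Pcdhb16 (chr18:37477814-37483038) had 6.33, 4.26, 6.17, 5.88 and 4.44 CPM in WT IgG1 libraries and 11.3, 8.64, 10.2, 8.77 and 9.37 in Jak1KO IgG1 libraries. With aPD1 the values were 4.08, 4.86, 3.80, 5.65 and 4.76 CPM in WT and 8.61, 9.45, 8.20, 8.09 and 8.08 in Jak1KO libraries. Again the groups did not overlap. The rise was 0.83 ± 0.15 (edgeR adjusted p = 0.00017) and 0.87 ± 0.15 (adjusted p = 8.4e-05).

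The remaining Jak1KO calls held under 1 antibody each. Pcdhb7 was lower under IgG1 (-0.95 ± 0.30, edgeR adjusted p = 0.026), at 0.595 ± 0.133 against 1.15 ± 0.313 CPM (SD, n = 5 each), a call lost with no filter on low counts or on leaving out any of 4 single libraries (adjusted p = 0.076 at most). Pcdhb18 was higher under aPD1 (0.70 ± 0.22, adjusted p = 0.026), and the call was lost without Jak1KO aPD1 replicate 2, its highest library, or without WT aPD1 replicate 2 or 3 (adjusted p = 0.13 at most). Pcdhgb8 was higher under aPD1 (1.31 ± 0.32, adjusted p = 0.0041), at 1.41 ± 0.308 against 0.561 ± 0.289 CPM, and its value under IgG1 was 0.56 ± 0.31. Of 19 tested gamma members none was called under IgG1 by edgeR, 4 had an unadjusted p under 0.05, and DESeq2 called 1, Pcdhgc4. Pcdhgc3 had 133 ± 16.7 and 135 ± 13.5 CPM in Jak1KO tumours and differed from WT by 0.34 ± 0.16 (edgeR adjusted p = 0.13) and 0.32 ± 0.16 (adjusted p = 0.15). Without the 2 libraries that stand apart the aPD1 value was 0.30 and passed (adjusted p = 0.0057), though neither library is in the groups compared there. Fitted on the compared groups alone, the aPD1 value was 0.32 ± 0.08 and also passed (adjusted p = 0.0089).

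**Figure D3:**
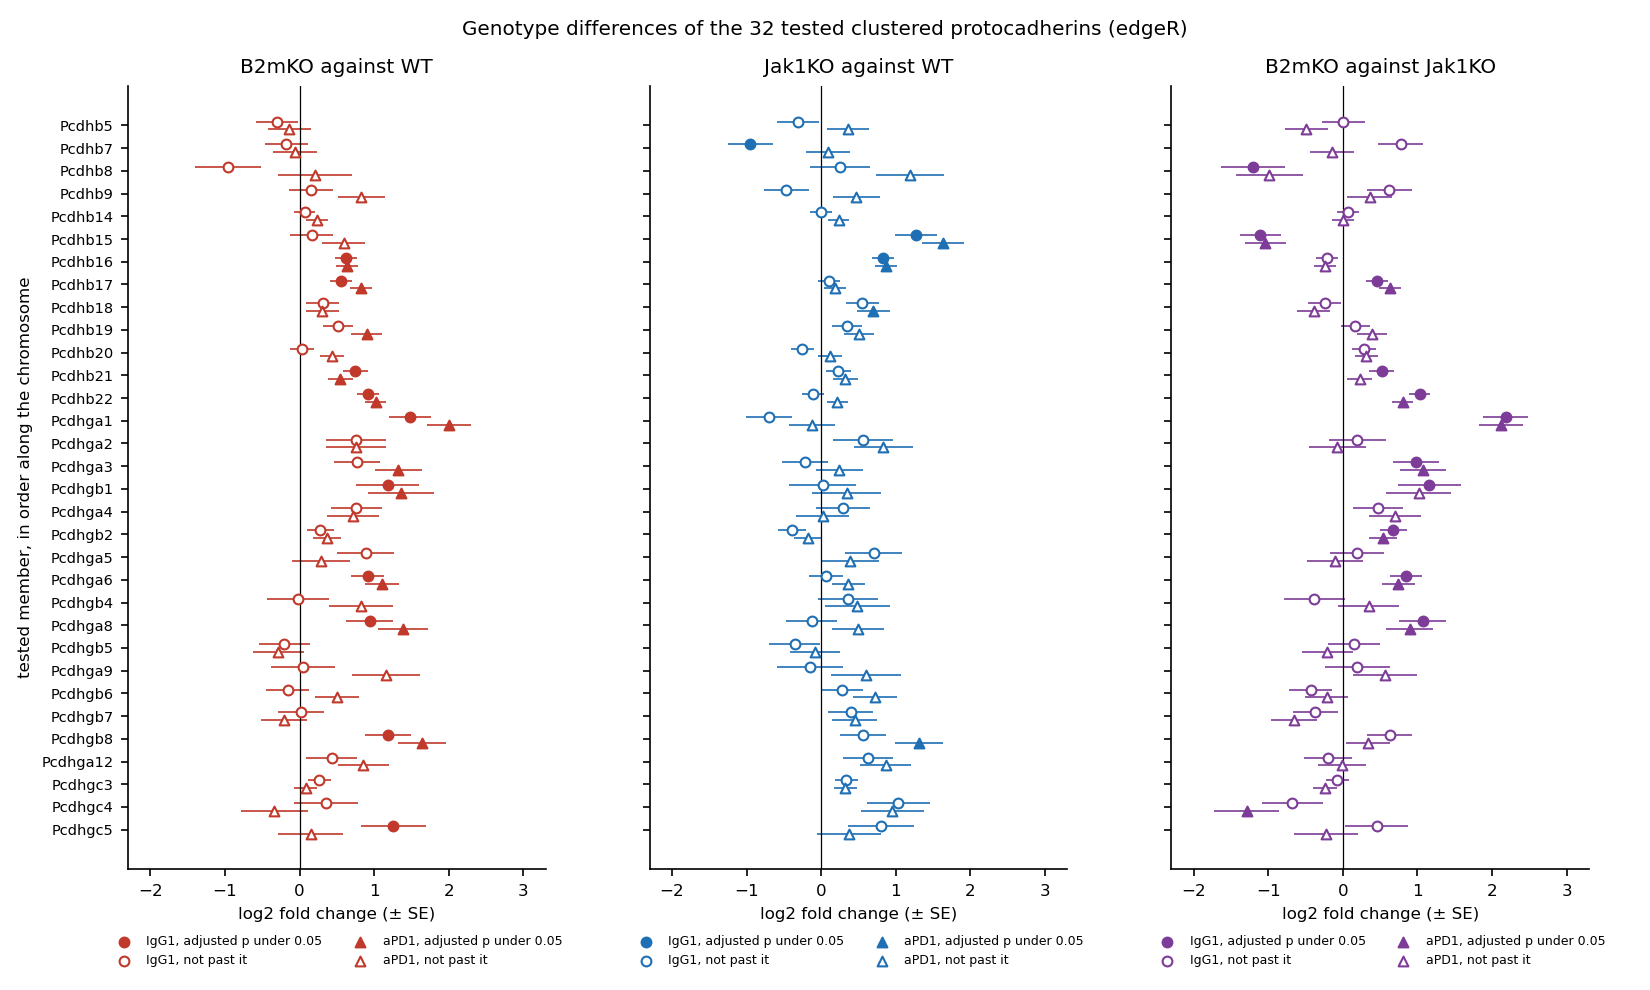
Log2 fold change ± SE (edgeR) of the 32 tested members in chromosome order, for B2mKO against WT, Jak1KO against WT and B2mKO against Jak1KO tumours (circles IgG1, triangles aPD1; filled where the adjusted p is under 0.05). The first panel has filled points only to the right of 0, and Pcdhb15 and Pcdhga1 lie on opposite sides in the third.

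The mutant tumours were also set against each other. With IgG1, 9 tested members were higher and 2 lower in B2mKO than in Jak1KO tumours, where 14.3% of all tested genes were called higher, 13.8% lower and 28.1% in either direction. With aPD1, 7 were higher and 2 lower, where the shares of all genes were 14.8%, 13.3% and 28.1%. The members' shares, 34.4% and 28.1%, were near those of all genes, so the counts do not set the members apart. They include Pcdhga8 under both antibodies and Pcdhgb1 and Pcdhb8 under IgG1, whose limits are given below. The members' median log2 fold changes were 0.19 and 0.11 against -0.02 and -0.01. This comparison is also the test of whether the 2 mutations' differences from the shared WT libraries are unequal.

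Pcdhga1 had the largest of these differences among the tested members. Its Jak1KO levels were 0.492, 0.799, 0.705, 1.34 and 0.711 CPM with IgG1 and 0.856, 0.643, 0.920, 1.02 and 0.695 with aPD1, all below each B2mKO library. The differences were 2.18 ± 0.30 (edgeR adjusted p = 2.2e-06) and 2.12 ± 0.30 (adjusted p = 3.6e-06). Pcdhb22 had 19.1, 17.3, 15.8, 18.7 and 16.9 CPM in Jak1KO IgG1 libraries and 18.5, 20.3, 17.2, 17.0 and 17.8 in Jak1KO aPD1 libraries, within the range of the WT libraries and below every B2mKO library. It was higher in B2mKO tumours by 1.03 ± 0.14 (adjusted p = 2.8e-06) and 0.80 ± 0.14 (adjusted p = 8.8e-05). Pcdhb15 went the other way, lower in B2mKO tumours by -1.11 ± 0.28 (adjusted p = 0.0030) and -1.04 ± 0.28 (adjusted p = 0.0053), with no overlap under either antibody.

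Pcdhb17, Pcdhga3, Pcdhgb2, Pcdhga6 and Pcdhga8 were also higher in B2mKO than in Jak1KO tumours under both antibodies. Their log2 fold changes were 0.46 and 0.63 for Pcdhb17, 0.99 and 1.08 for Pcdhga3, and 0.68 and 0.54 for Pcdhgb2. They were 0.85 and 0.74 for Pcdhga6 and 1.07 and 0.89 for Pcdhga8. Pcdhb21 (0.52 ± 0.17, edgeR adjusted p = 0.020) and Pcdhgb1 (1.16 ± 0.43, adjusted p = 0.041) were higher under IgG1. Pcdhb8 was lower under IgG1 (-1.21 ± 0.43, adjusted p = 0.037) and the C-type Pcdhgc4 under aPD1 (-1.29 ± 0.43, adjusted p = 0.025), at 0.612 ± 0.340 against 1.51 ± 0.432 CPM. Pcdhb8 averaged 0.326 CPM over the 30 libraries, was above the filter level throughout no group and was highest in Jak1KO IgG1 tumours. It may thus have entered the test through libraries where it is high. Its call, and those of Pcdhgb1 and Pcdhga8 for the reason given above, are values without further weight. Pcdhb16, which rose in both mutants, differed between them by -0.21 ± 0.15 and -0.24 ± 0.15 and was not called. Several of these calls were lost on leaving out single libraries. Under aPD1 these were Pcdhgb2 and Pcdhga8 (any of 6 libraries each, adjusted p up to 0.090 and 0.11) and Pcdhgc4 (any of 5, up to 0.064). Under IgG1 they were Pcdhgb1 (any of 7, up to 0.10), Pcdhb8 (any of 6, up to 0.16), Pcdhb21 (any of 4, up to 0.077), Pcdhb17 (B2mKO replicate 1 or 2, up to 0.070) and Pcdhga3 (Jak1KO replicate 5, 0.051). The IgG1 count fell from 11 to 7 when B2mKO IgG1 replicate 1, B2mKO IgG1 replicate 2 or Jak1KO IgG1 replicate 5 was left out. Without the 2 libraries that stand apart the counts were 13 and 13, where 40.8% and 38.3% of genes were called in either direction. Neither of those libraries is in the groups compared under IgG1.

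The 9 beta members that were too low for the main test were examined in a fit of the 34952 genes with a count. Between B2mKO and Jak1KO tumours, 7 of the 9 estimates were below 0 and 1 above under IgG1, and 7 below and 2 above under aPD1, Pcdhb12 being above 0 under both (0.68 ± 0.48 and 0.85 ± 0.48). Under IgG1 2 were called lower, Pcdhb3 (-1.90 ± 0.52, edgeR adjusted p = 0.012) and Pcdhb6 (-2.24 ± 0.70, adjusted p = 0.034), where 4.52% of genes were called lower and 10.4% in either direction. Under aPD1 2 were called lower, Pcdhb2 (-2.78 ± 0.80, adjusted p = 0.019) and Pcdhb6 (-2.21 ± 0.73, adjusted p = 0.048), where 4.73% of genes were called lower and 10.2% in either direction. In that fit none of the 9 was called higher, and none was called against WT. DESeq2, however, called Pcdhb4, one of the 9, higher in Jak1KO than in WT tumours under IgG1 (1.28 ± 0.47, DESeq2 adjusted p = 0.043). So did edgeR with its filter when WT IgG1 replicate 1 or 4, or Jak1KO IgG1 replicate 2 or 4, was left out (adjusted p = 0.047 at most). Pcdhb6, the one called under both antibodies, held 30 and 27 counts over the Jak1KO IgG1 and aPD1 groups, 11 and 10 over the WT groups and 6 and 5 over the B2mKO groups. Pcdhb2 held 28 and 40, 17 and 10, and 8 and 5 counts in the same order, and Pcdhb3 held 46 and 33, 19 and 17, and 12 and 11.

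Summed levels were highest in B2mKO tumours in the beta cluster and in the gamma cluster without Pcdhgc3. The beta sum averaged 60.4 ± 8.09 and 49.1 ± 8.30 CPM in WT tumours with IgG1 and aPD1, 89.5 ± 17.7 and 79.8 ± 8.99 in B2mKO tumours, and 67.3 ± 4.13 and 64.4 ± 5.51 in Jak1KO tumours (SD, n = 5 each). The gamma sum without Pcdhgc3 averaged 19.0 ± 3.22 and 15.4 ± 4.93 CPM in WT, 30.9 ± 2.87 and 27.3 ± 8.28 in B2mKO and 21.5 ± 1.74 and 20.5 ± 1.18 in Jak1KO tumours. With IgG1, each B2mKO library was above each WT and Jak1KO library in the gamma sum without Pcdhgc3. With aPD1, B2mKO replicate 2 had 12.6 CPM and lay inside the WT range. The full gamma sum, set mostly by Pcdhgc3, averaged 123 to 158 CPM over the 6 groups.

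**Figure D4:**
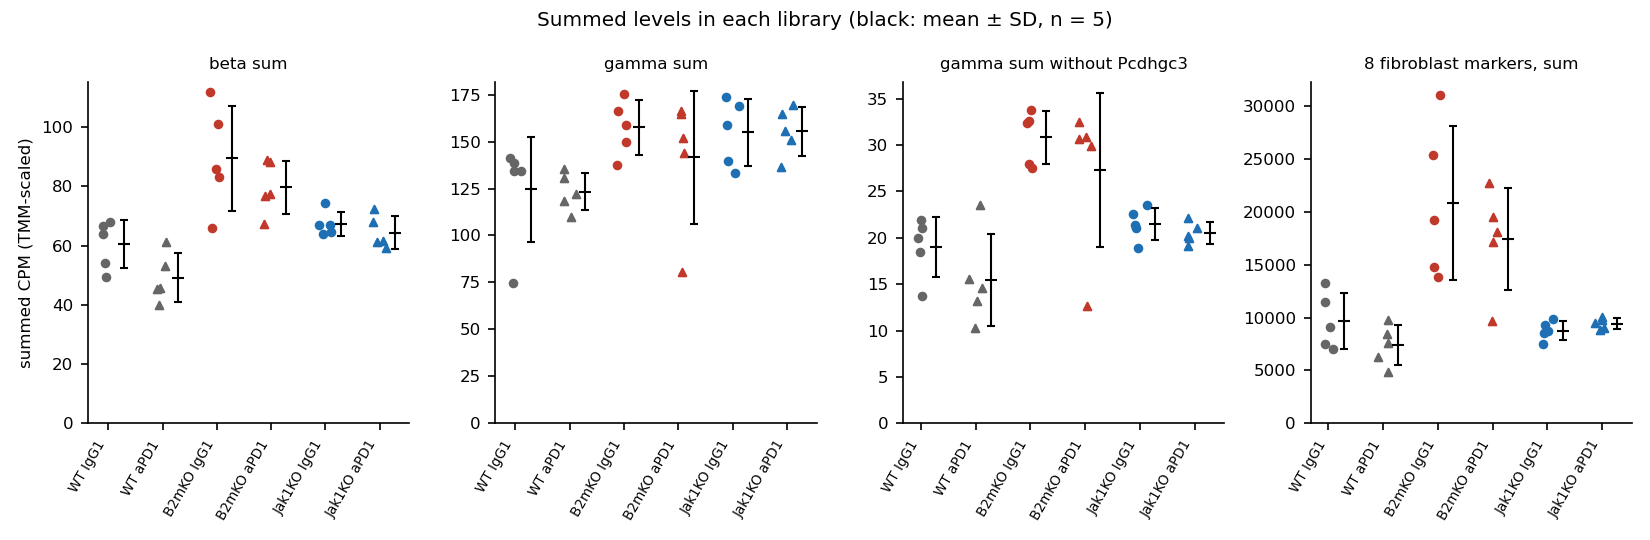
Summed level of the beta members, the gamma members, the gamma members without Pcdhgc3 and 8 fibroblast markers in each library (TMM-scaled CPM; circles IgG1, triangles aPD1; black bars mean ± SD, n = 5). The B2mKO group means are the highest in the beta sum, in the gamma sum without Pcdhgc3 and in the fibroblast markers; single B2mKO libraries lie within the WT range, such as IgG1 replicate 5 in the beta sum (65.8 CPM) and aPD1 replicate 2 in the gamma sum without Pcdhgc3 (12.6 CPM) and in the fibroblast markers (9693 CPM).

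Markers of fibroblasts moved with the B2mKO difference. The 8 markers summed to 6976 to 13241 CPM in WT IgG1, 4872 to 9772 in WT aPD1, 13809 to 31033 in B2mKO IgG1 and 9693 to 22760 in B2mKO aPD1 libraries, and none was at 0 in any group. Of the 8, 6 were called higher in B2mKO than in WT tumours under each antibody. Of 7 endothelial markers, 0 were called higher under IgG1 and 5 under aPD1. Of all tested genes, 9.07% were called higher under IgG1 and 9.55% under aPD1. The part of these markers in the rise of Pcdhb22, Pcdhga1 and the other members was not tested. For the Jak1KO rise of Pcdhb15 and Pcdhb16 under IgG1, 0 of the 8 fibroblast markers were called higher and 1 was called lower, and the sums of 7490 to 9828 CPM lay within the WT range. Of all tested genes, 6.93% were called higher and 11% lower in that comparison. Under aPD1, 3 of the 8 fibroblast markers were called higher, where 8.06% of all tested genes were. Other markers moved in Jak1KO tumours under IgG1: 3 of 6 T cell markers were called higher, with sums of 7.54 to 33.2 CPM against 3.54 to 12.1 in WT libraries, 2 of 7 endothelial markers were called lower, and 1 neural and 1 macrophage marker were called higher. Their part in the rise of Pcdhb15 and Pcdhb16 was not tested. No neural marker was called higher in B2mKO tumours: of 10 genes 5 were tested, 0 were called higher and 1 (IgG1) or 2 (aPD1) lower. Of all tested genes, 11.5% (IgG1) and 10.2% (aPD1) were called lower. The neural sum was 69.2 to 127 CPM in B2mKO against 120 to 164 in WT libraries.

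The share that a member took of its own cluster, scaled by length, also differed between genotypes. Pcdhb22 made up 25.3 ± 2.99% and 25.6 ± 1.90% of the beta cluster in WT tumours with IgG1 and aPD1, 33.2 ± 1.41% and 32.7 ± 2.34% in B2mKO and 20.7 ± 0.97% and 22.3 ± 1.00% in Jak1KO tumours (SD, n = 5 each). Pcdhb16 made up 8.42 ± 0.565% and 9.02 ± 0.977% in WT, 9.00 ± 0.543% and 8.85 ± 1.04% in B2mKO and 13.4 ± 1.17% and 12.3 ± 0.527% in Jak1KO tumours. Pcdhb15 made up 3.27 and 2.92% in WT, 2.48 and 2.81% in B2mKO and 6.96 and 6.81% in Jak1KO tumours. The level of Pcdhb16 rose in B2mKO tumours, while its mean share there lay between those of the WT groups. These shares are descriptions with no test.

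In the gamma cluster, Pcdhgc3 took 88.8 ± 1.60% and 91.3 ± 2.42% in WT, 85.8 ± 0.82% and 86.2 ± 1.67% in B2mKO and 90.1 ± 0.89% and 90.6 ± 1.13% in Jak1KO tumours. Among A- and B-type gamma members, Pcdhga1 took 7.06 ± 2.41% and 6.20 ± 1.18% in WT, 12.1 ± 3.29% and 13.2 ± 1.24% in B2mKO and 4.01 ± 1.46% and 4.32 ± 0.86% in Jak1KO tumours. Pcdhga6 stayed between 17.3 and 22.3% of them in the group means. The share of Pcdhga1 was highest in B2mKO and lowest in Jak1KO tumours.

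Whether the pattern of members marked the tumour line was described by correlating libraries over the 32 tested members, on log2(CPM + 0.5) centred on each member's mean. The library most like a given one had the same genotype in 26 of 30 cases (7 of 10 WT, 9 of 10 B2mKO and 10 of 10 Jak1KO), where 9 of the 29 other libraries share it. It had the same antibody in 14 of 30 cases, where 14 of the 29 share it. Other sets of genes were not compared. In the genotype comparisons 17.9 to 28.1% of all tested genes were called, so the likeness by genotype is not shown to be particular to these members. The 32 include Pcdhgb1, Pcdhga8 and Pcdhb8, which entered or may have entered the test through libraries where they are high. The median Pearson's r was 0.55 within B2mKO, 0.51 within Jak1KO and 0.21 within WT tumours. It was -0.44 between B2mKO and Jak1KO, -0.22 between WT and B2mKO and -0.04 between WT and Jak1KO tumours. WT IgG1 replicate 3 was most like B2mKO aPD1 replicate 2 (r = 0.77), the other library that stands apart; without both, 27 of 28 libraries were most like one of their own genotype. Because each member was centred on its mean over all libraries, a high value in 1 genotype makes the values of the others low. Correlations between genotypes therefore tend to lie below 0, and their sign is not read as opposite patterns. The libraries share the centring and differ in depth, and the correlations are given with no p.

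**Figure D5:**
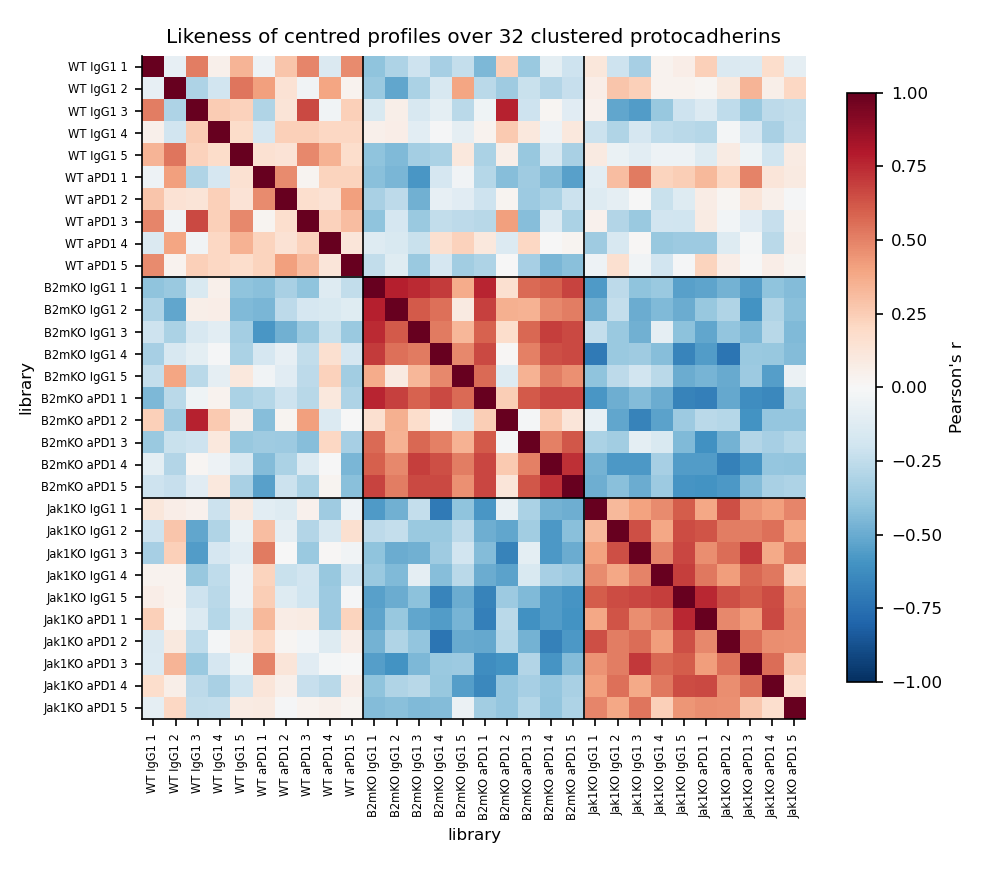
Pearson's r between the 30 libraries over the 32 tested members (log2(CPM + 0.5), centred by member; libraries in order of genotype, antibody and replicate; black lines separate genotypes; red positive, blue negative). The B2mKO and Jak1KO blocks on the diagonal are red (medians 0.55 and 0.51), and the field between them is blue (median -0.44). The centring itself pushes r between genotypes below 0.

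No difference between the antibodies was called for these genes. Under aPD1 against IgG1, edgeR called 0 of the 32 tested members in WT tumours, where 4.06% of all tested genes were called, 3.48% higher and 0.58% lower, and 0 in B2mKO and 0 in Jak1KO tumours, where 0% of all genes were called. At an unadjusted p under 0.05 there were 6, 1 and 1 members, the smallest adjusted p were 0.12, 0.81 and 1.0, and DESeq2 also called 0 in each. In WT tumours 26 of the 32 estimates were below 0, with a median log2 fold change of -0.30 against -0.03 for all genes. The smallest p was that of Pcdhb8, which had 0.717, 0.277, 0.50, 0.258 and 0.396 CPM with IgG1 and 0.221, 0.143, 0.136, 0.188 and 0.197 with aPD1. Those groups did not overlap, and the log2 fold change was -1.27 ± 0.46 (edgeR adjusted p = 0.12). Without the 2 libraries that stand apart, Pcdhgb6 (-0.91 ± 0.26, adjusted p = 0.038) and Pcdhgb8 (-0.92 ± 0.27, adjusted p = 0.041) were called lower in WT tumours, where 5.77% of genes were called.

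The genotype differences were also compared between the antibodies, as differences of the aPD1 effect between genotypes. No tested member was called by edgeR or DESeq2 for B2mKO against WT, Jak1KO against WT or B2mKO against Jak1KO tumours, where edgeR called 0.0967%, 0% and 0% of all tested genes. The 0.0967% split into 0.0129% higher and 0.0838% lower. At an unadjusted p under 0.05 there were 0, 2 and 1 members. A call under IgG1 and not aPD1, or the reverse, is therefore not shown to be a difference between the antibodies for any of these members.

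Genes that act on protocadherin promoters were counted in the same comparisons. Of 24 regulators tested, 2 were higher and 3 lower in B2mKO than in WT tumours under IgG1, where 9.07% of all genes were higher and 11.5% lower. Under aPD1 1 was higher and 1 lower, where 9.55% of all genes were higher and 10.2% lower. Against WT, Jak1KO tumours had 3 higher and 1 lower under IgG1 (6.93 and 11% of all genes) and 2 higher and 0 lower under aPD1 (8.06 and 12%). Between B2mKO and Jak1KO tumours, 3 were higher and 4 lower under IgG1 (14.3 and 13.8% of all genes) and 2 higher and 8 lower under aPD1 (14.8 and 13.3%). Tet1, an enzyme that oxidises methylated cytosine, averaged 0.398 and 0.313 CPM in WT, 1.78 and 1.70 in B2mKO and 0.495 and 0.466 in Jak1KO tumours. Its WT means lay below the filter level of about 0.472 CPM, and only its B2mKO means lay well above it. It may thus have entered the test through the groups where it is high, and its calls are given as values without further weight. Against WT, its level in B2mKO tumours was higher by 2.11 ± 0.45 (edgeR adjusted p = 0.0014) and 2.41 ± 0.46 (adjusted p = 0.00044). Rad21, a cohesin subunit, was lower by -0.46 ± 0.08 (adjusted p = 0.00010) and -0.37 ± 0.08 (adjusted p = 0.0010), the second lost when only the compared groups were fitted (adjusted p = 0.059). Ctcf, the insulator protein bound at these promoters, was lower in B2mKO than in Jak1KO tumours by -0.32 ± 0.07 (adjusted p = 0.00069) and -0.21 ± 0.07 (adjusted p = 0.019). It was also called lower in B2mKO than in WT tumours under IgG1, at -0.26 to -0.20 in the fits without 1 library, and not under aPD1.

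Of 12 protocadherins outside the clusters, 8 were tested. In B2mKO against WT tumours 4 were higher and 1 lower under each antibody, where 9.07 and 9.55% of all genes were higher and 11.5 and 10.2% lower. In Jak1KO against WT tumours 2 were higher and 2 lower under each antibody, where 6.93 and 8.06% of all genes were higher and 11 and 12% lower. Their median log2 fold changes were 0.42 and 0.73 in B2mKO and 0.07 and 0.25 in Jak1KO tumours, where those of the tested clustered members were 0.39 and 0.61, and 0.24 and 0.38. The genes named here have the smallest p of the list. Pcdh9 averaged 4.70 and 3.72 CPM in WT, 35.5 and 35.4 in B2mKO and 14.2 and 12.9 in Jak1KO tumours, and Pcdh17 averaged 8.42 and 6.98, 48.7 and 43.6, and 16.7 and 15.2. Under IgG1 the log2 fold changes in B2mKO against WT were 2.91 ± 0.22 for Pcdh9 and 2.53 ± 0.28 for Pcdh17, against at most 1.48 for a tested member of the clusters. Pcdh7 was lower in both mutants, by -4.04 ± 0.30 and -3.46 ± 0.29 in Jak1KO and -1.43 ± 0.26 and -1.29 ± 0.26 in B2mKO tumours.

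Of 17 tested classical and large cadherins, 3 and 5 were higher and 2 and 1 lower in B2mKO than in WT tumours under IgG1 and aPD1, where 9.07 and 9.55% of all genes were higher and 11.5 and 10.2% lower. Clstn3, a synaptic calsyntenin, was higher by 1.66 ± 0.19 and 1.71 ± 0.19. Cdh11 was called lower under both antibodies, and Cdh10 under IgG1. In the fits without 1 library, Cdh11 had -2.91 to -1.71 under IgG1 and -2.70 to -1.63 under aPD1. Cdh10 had -1.34 to -0.99 under IgG1. Of 21 tested partners and processing enzymes of protocadherins, 1 and 0 were higher and 2 and 5 lower in the same comparison. Ptk2, the focal adhesion kinase that binds the constant part, was lower in B2mKO than in Jak1KO tumours by -0.35 ± 0.08 and -0.53 ± 0.08. It was also called lower in B2mKO than in WT tumours under both antibodies. Those values were -0.30 to -0.20 under IgG1 and -0.37 to -0.24 under aPD1 in the fits without 1 library. Of 12 tested genes that flank the clusters or lie between them, 2 and 3 were higher and 0 lower in B2mKO than in WT tumours, beside the same shares of all genes. Taf7, a transcription factor gene between the beta and gamma clusters, averaged 18.9 and 19.0 CPM in B2mKO and 11.3 and 11.6 in Jak1KO tumours, a difference of 0.74 ± 0.13 (edgeR adjusted p = 9.3e-05) and 0.72 ± 0.13 (adjusted p = 0.00015). Against WT, Taf7 was called lower in Jak1KO tumours under both antibodies and was not called in B2mKO tumours. In the fits without 1 library, its Jak1KO values against WT were -0.59 to -0.37 under IgG1 and -0.44 to -0.35 under aPD1.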

How the data were processed

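The deposited values are raw counts per gene. Per the file headers, the authors counted with featureCounts 2.0.0 against the Ensembl release 99 models of GRCm38. The headers show no option for strand, read pairs or reads shared by several genes. STAR 2.5.2a, FastQC 0.11.2, Cufflinks 2.2.1, edgeR 3.24.3 and mm10 appear, without parameters, among the submitters' processing notes. Per the labels' protocols, total RNA was taken from some 50 mg of each tumour. Without strand, a member and an antisense gene could not be separated, and reads from constant exons were lost.

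Genes were filtered in R 4.3.3 with edgeR 4.0.16 (filterByExpr by group, minimum count 10, minimum total 15), scaled by TMM (factors 0.939 to 1.043) and tested in 1 quasi-likelihood fit of all 30 libraries with 6 group means, adjusting over 15505 genes. The SE of a fold change was derived from its F statistic, as its size over the root of F. DESeq2 1.42.0 was an alternative. The steps were tested on simulated data. Relch, first listed among the flanking genes, lies on chromosome 1 and was left out of that list. Own exon bases were computed from the exon coordinates in the files.

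The members and gene lists were chosen with earlier results of these data known. Named members are those called in any comparison, the 3 with the highest CPM of each cluster and the C-type isoforms; of each list, up to 4 genes with the smallest p. Pcdhb12, Pcdhb14, Pcdhb20, Pcdhgb6 and Pcdhgb7 were named after their values were seen. Same-numbered libraries were not paired. No pair of replicates was a repeat of the same library: over 60 pairs, chi-square per df was 6.49 to 205.8.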

Additional observations from a re-analysis of the deposited data

Results flagged for a closer look

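In 6 of 146 group values examined, 1 library lay far from the 4 others of its group; chance gives about 1 in 20. Pcdhgc3 had 60.8 CPM in WT IgG1 replicate 3, where the other WT IgG1 libraries had 112 to 121, and the gamma sum of that library was 74.5 CPM against 134 to 141. The gamma sum of B2mKO aPD1 replicate 2 was 80.5 CPM against 144 to 166 in its group. These are the libraries that stand apart over all genes. Pcdhb7 had 0.331 CPM in WT aPD1 replicate 1 against 0.906 to 1.09. Pcdhb18 had 4.35 CPM in Jak1KO aPD1 replicate 2 against 2.24 to 2.65. The beta sum of Jak1KO IgG1 replicate 1 was 74.3 CPM against 63.9 to 66.9.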

How the results depend on the processing

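Of the 48 member calls in the genotype comparisons, 31 held in every alternative run, 33 in every fit without 1 library and 34 in every other fit, and 48 kept their direction. Fitting only the compared groups gave 6 calls in place of 10 for B2mKO against WT under IgG1 and 7 in place of 4 for Jak1KO against WT under aPD1. DESeq2 gave 5 in place of 3 for Jak1KO against WT under IgG1. Without both libraries that stand apart, chosen after seeing the data, there were 8 for Jak1KO against WT under aPD1 and 2 for aPD1 against IgG1 in WT tumours. Leaving out 1 library gave 3 to 7 for Jak1KO against WT under aPD1, 7 to 12 for B2mKO against Jak1KO under IgG1, and 0 to 1 for aPD1 against IgG1 in WT tumours (Pcdhgb6, without WT aPD1 replicate 4). The cause was not tested. With no length scaling, the share of Pcdhgc3 in the gamma cluster was 84.4, 87.6, 80.4, 81.0, 86.1 and 86.7% in WT IgG1, WT aPD1, B2mKO IgG1, B2mKO aPD1, Jak1KO IgG1 and Jak1KO aPD1 tumours, and the share of Pcdhb22 in the beta cluster was 31.5, 31.7, 40.1, 39.6, 26.1 and 28.2%; members' lengths differ, which sets these shifts.

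Same-numbered libraries of different groups correlated from -0.587 to 0.464 in their deviations from the group means (75 pairs, median -0.0038), and 5 of 30 libraries correlated best with their own number, so the numbers were not taken as pairs. With the replicate block the counts were 10 for B2mKO against WT under IgG1 and 11 under aPD1, 3 and 4 for Jak1KO against WT, 10 and 8 for B2mKO against Jak1KO, and 0 in every antibody comparison and difference of effects.

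Depth limits the alpha members and the low beta and gamma members: 26 members were too low for the main test.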
